A study of Saccharomyces cerevisiae with 17 samples.

Results

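Transcript levels of the lager brewing yeast strain CB11 were compared between a fermentation and a propagation, both sampled at 30 h, over all 5449 Saccharomyces cerevisiae genes that the array reads. The difference is the mean of 2 fermentation 30 h arrays (B and C) minus the mean of 3 propagation 30 h arrays (A, B and C), on the log2 scale of the deposited expression summary, so that 1 unit is a 2-fold difference. Propagation yeast grew in a 140 hL vessel on wort of 17 °Plato at 20 °C that contained 0.5 mg/L zinc. Molecular oxygen was fed in a ramped supply that held dissolved oxygen at 7 to 8 mg/L, and this yeast had been grown aerobically in a smaller vessel before. Fermentation yeast had been through 4 earlier fermentations and stood in a 3275 hL cylindroconical vessel filled with successive batches of the same wort. That wort contained 0.2 mg/L zinc sulphate and was brought to 25 mg/L oxygen in line before filling.

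Stage, vessel, oxygen supply, zinc and yeast generation all differ between the groups and cannot be told apart. The labels describe samples drawn in triplicate from a vessel, and nothing says that they came from separate vessels, so the p-values measure the spread between samples that may be technical. The series holds 17 arrays in 6 groups, with propagation at 0, 8 and 30 h and fermentation at 8, 30 and 60 h. All 17 entered one limma fit, and a gene was called higher or lower at an adjusted p under 0.05. Lager yeast is a hybrid of S. cerevisiae with a cold-tolerant relative, and probe sets were not assigned here to one parental genome or the other.

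Aerobic growth and entry into an oxygenated wort expose yeast to superoxide and hydrogen peroxide, which superoxide dismutases, catalases and peroxiredoxins remove, with electrons supplied by thioredoxin and glutathione. Sterols and unsaturated fatty acids can be made only while oxygen is present, and brewers oxygenate wort so that pitched yeast can rebuild them. When sugar or nitrogen runs short, yeast slows the synthesis of ribosomes and turns on a general stress programme of small heat shock proteins, trehalose and glycogen.

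The propagation 30 h arrays differed from the fermentation 30 h arrays across the whole profile. Across genes, the correlation was 0.985 between the fermentation 30 h arrays, 0.935 to 0.959 among the propagation 30 h arrays and 0.396 to 0.463 between the stages. Propagation 30 h correlated at 0.881 to 0.935 with propagation 8 h and at 0.384 to 0.491 with propagation 0 h, whereas fermentation 30 h correlated at 0.946 to 0.993 with fermentation 8 h and at 0.762 to 0.871 with propagation 0 h. The 6 arrays of propagation 8 h and 30 h therefore stood apart from the other 11. The interquartile range of the genes was 2.37 to 2.44 on the fermentation 30 h arrays and 2.13 to 2.19 on the propagation 30 h arrays, and spiked hybridization controls read 9.75 to 9.98 and 12.16 to 12.69. These controls read 12.41 to 12.85 in propagation 8 h, and 4.83 to 10.69 on the 11 arrays outside propagation 8 h and 30 h. The same 6 arrays thus also stood apart in the controls. The gap between 3-prime and 5-prime control signal was widest on propagation 0 h A (4.39), fermentation 60 h A (3.44) and fermentation 8 h A (3.1). These 3 arrays, picked by this gap, are called the 3 arrays of lowest 5-prime signal below. Ranges given for propagation 0 h include its array A, which for ERG26 read 7.64 against 11.07 and 10.94 on B and C. The part of these array properties in the differences given here was not tested.

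Markers of other cell states also differed between the 30 h groups, but propagation 0 h was low as well. The array median of 24 meiosis and sporulation markers was 4.64 to 4.74 in fermentation 30 h and 7.21 to 8.11 in propagation 30 h, and that of 14 haploid mating markers was 5.51 to 5.64 and 7.45 to 8.46. In propagation 8 h these medians were 7.11 to 7.26 and 8.01 to 8.27, and in propagation 0 h 4.5 to 5.73 and 5.06 to 6.69. Genes with no standard name, 499 in all, had array medians of 6.57 to 6.6 in fermentation 30 h and 7.54 to 7.71 in propagation 30 h. The 1746 probe sets for another yeast species, used as a measure of background, had array medians of 3.39 to 3.45 and 3.59 to 3.65. Of these, 3.72% passed the same test, 58 of them lower in fermentation and 7 higher. Their 95th percentile was 4.67 to 4.77 in fermentation 30 h and 5.02 to 5.27 in propagation 30 h, so background was also somewhat higher in propagation. These are bulk samples, in which fewer cells of a type and less RNA per cell cannot be told apart.

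**Figure D1:**
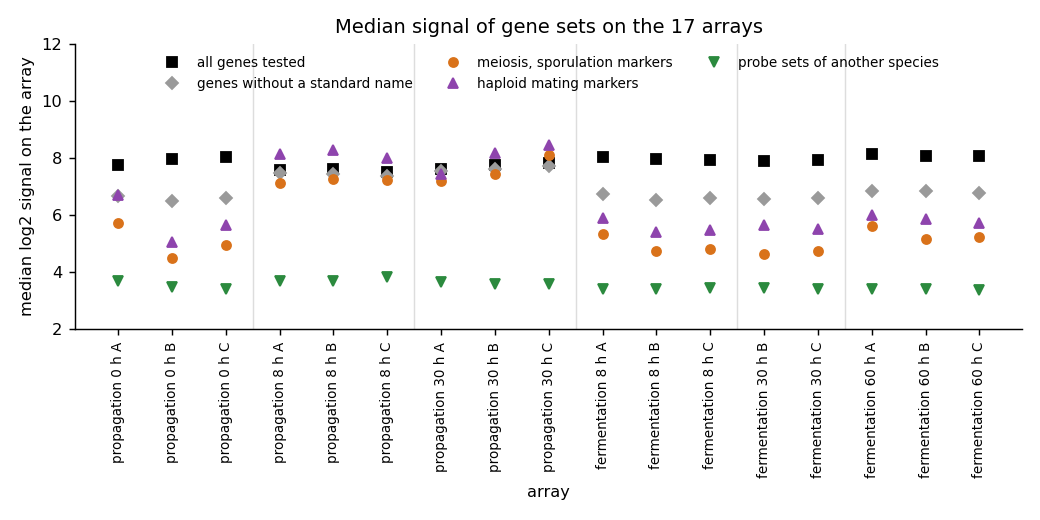
Median log2 signal (vertical axis) of 5 sets of genes or probe sets on each of the 17 arrays (horizontal axis), with grey lines between groups. Meiosis and mating markers and genes without a standard name sit higher on the propagation 8 h and 30 h arrays, while the median of all genes and of probe sets for another species moves little.

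At 30 h, 3565 of 5449 genes were called (65.4%), 2045 of them higher in fermentation (37.5%) and 1520 lower (27.9%). Of all genes, 57.0% were called and differed at least 2-fold, and 81.5% had arrays that did not overlap between the groups (46.3% higher and 35.2% lower). A difference of at least 16-fold was reached by 106 genes in the higher direction (1.95%) and by 98 in the lower (1.8%). The median over all genes was 0.24, which array recentring moved to 0.05, and the medians of gene groups are therefore given relative to that of all genes. Differences were not spread evenly over the range of signal. With genes split by mean signal into 4 equal bins, 20.6% were higher and 41.6% lower in the dimmest bin, and in the brightest bin 58.9% were higher and 15.2% lower. The mean was taken over all 17 arrays, the compared ones included, so the bin of a gene depends partly on its difference. Among the 499 genes without a standard name 52.3% were lower.

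The called genes were then set against all groups. Among the 2045 higher genes, 1313 (64.2%) had all 6 arrays of propagation 8 h and 30 h below all 11 other arrays, propagation 0 h included. In 230 (11.2%) the 3 propagation 30 h arrays lay below all 14 others, and in 59 (2.89%) both fermentation 30 h arrays lay above all 15 others. The corresponding numbers among the 1520 lower genes were 822 (54.1%), 309 (20.3%) and 109 (7.17%). These genes were called on arrays that enter the counts, and the shares among all genes were not counted, so the percentages are descriptions only. The 59 genes that were highest in fermentation 30 h include the catalase CTT1, the sterol pathway enzyme HMG1, the acetyl-CoA enzymes ACS2 and ACC1 and the dihydroxyacetone kinase DAK1. Margins could be narrow: the lower fermentation 30 h array read 11.64 for ACS2 and 10.38 for DAK1, and the highest array of the other groups 11.62 and 10.32.

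**Figure D2:**
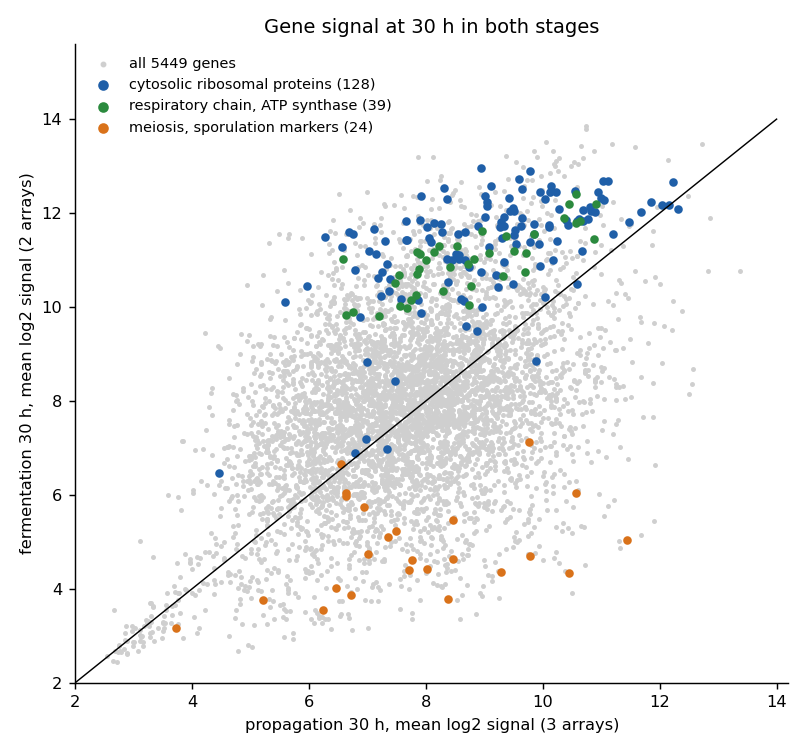
Mean log2 signal in fermentation 30 h (vertical axis, 2 arrays) against propagation 30 h (horizontal axis, 3 arrays) for 5449 genes, with the line of equal signal. Cytosolic ribosomal proteins and respiratory chain genes lie mostly above the line, and meiosis and sporulation markers mostly below it.

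The 8 largest rises among genes with a standard name joined sugar storage, sterols, protein folding, the vacuole and the cytoskeleton. PGM2, the phosphoglucomutase that links glycolysis to glycogen and trehalose, had log2 signals of 11.4 and 11.7 in fermentation 30 h and of 5.72, 5.81 and 4.96 in propagation 30 h. The groups lay far apart, and the difference of 6.06 (SE 0.40, adjusted p = 3.73e-09) is 66.6-fold. ERG10, the acetoacetyl-CoA thiolase that opens the sterol pathway, read 12.61 and 12.21 against 6.92, 6.31 and 6.33, a difference of 5.89 (SE 0.42). VMA4, a stalk subunit of the vacuolar proton pump, read 11.44 and 11.5 against 6.34, 5.52 and 5.05, a difference of 5.83 (SE 0.46). In each of these genes every fermentation 30 h array was above every propagation 30 h array. The others were DCS2, a regulator of decapping scavenging (6.05, SE 0.35), SBA1, an Hsp90 co-chaperone (5.89, SE 0.38), PFY1, profilin (5.58, SE 0.39), ADE8 of purine synthesis (5.52, SE 0.62) and CPR5, a cyclophilin of the endoplasmic reticulum (5.47, SE 0.55).

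The 8 largest falls, again among genes with a standard name, had low signal in fermentation, and the lowest difference over all genes was -6.6. MER1, a splicing factor of meiotic transcripts, read 4.99 and 5.08 in fermentation 30 h and 10.7, 11.8 and 11.82 in propagation 30 h, a difference of -6.40 (SE 0.54, adjusted p = 3.61e-08). SAE3, a meiotic recombination factor, read 4.35 and 4.34 against 10.23, 10.25 and 10.9. Its fermentation signal lay within that of probe sets for another species, so the gene was at least 53.4-fold lower. For the same reason DGR1, a gene of unknown function, was at least 64.6-fold lower, the hexose transporter gene HXT14 at least 23.1-fold lower and GAT3, of the GATA zinc finger family, at least 17.5-fold lower. GIT1, the permease for glycerophosphoinositol, fell by 5.53 (SE 0.40), RRT5 by 5.50 (SE 0.36) and RTA1 by 5.43 (SE 0.32). All 8 were also high in propagation 8 h and low on every other fermentation array: MER1 read 11.34 to 11.55 and 4.71 to 5.65 there.

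Antioxidant transcripts were higher in fermentation. A panel of 14 antioxidant and stress genes had 13 higher, none lower and 1 that did not pass. Of all genes 37.5% were higher, and of the brightest bin 58.9%, so the panel rose within a broad shift. Arrays did not overlap between the groups in 81.5% of all genes, so the separations given below for single genes are descriptions. CTT1, the cytosolic catalase, read 13.23 and 13.15 in fermentation 30 h and 8.39, 7.92 and 8.06 in propagation 30 h, a 33.5-fold difference (5.06, SE 0.37, adjusted p = 9.28e-09). CTA1, the peroxisomal catalase, read 10.5 and 9.43 against 6.21, 6.11 and 6.24 (3.78, SE 0.33). Both catalases were separated from propagation on every array, and CTT1 read 7.63 to 9.43 in propagation 0 h as well.

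The superoxide dismutases moved with the chaperone that loads copper. SOD1, the copper-zinc enzyme of the cytosol, read 11.92 and 11.28 in fermentation 30 h against 9.02, 8.48 and 8.33 in propagation 30 h, 7.96-fold higher (2.99, SE 0.40, adjusted p = 5.75e-06). CCS1, its copper chaperone, read 9.46 and 9.36 against 4.95, 5.1 and 4.87 (4.43, SE 0.55). SOD2, the manganese enzyme of mitochondria, read 11.84 and 11.65 against 9.6, 9.45 and 9.98 (2.07, SE 0.54, adjusted p = 0.00298). None of these groups of arrays overlapped.

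Among peroxidases and their electron donors, TSA1, the main cytosolic peroxiredoxin, read 13.42 and 13.23 against 10.18, 9.8 and 9.58 (3.47, SE 0.26, adjusted p = 1.4e-08). AHP1, a peroxiredoxin that favours alkyl hydroperoxides, read 12.55 on both fermentation 30 h arrays against 8.62, 8.85 and 9.24 (3.65, SE 0.23). TRX2, a cytosolic thioredoxin, read 12.45 and 12.08 against 10.36, 10.25 and 9.32 (2.29, SE 0.31). Each of them was higher on every fermentation array. TRR1, the thioredoxin reductase, rose by 1.99 (SE 0.26), and GLR1, the glutathione reductase, by 1.94 (SE 0.35). GSH1, which catalyses the first step of glutathione synthesis, read 9.46 and 9.45 against 8.33, 8.93 and 9.51. Its arrays overlapped, and its difference of 0.53 (SE 0.52, adjusted p = 0.385) did not pass.

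Of the remaining panel genes, YHB1, the flavohemoglobin that consumes nitric oxide, read 9.59 and 9.53 against 6.21, 5.91 and 5.74 (3.61, SE 0.54). HSP12, a small stress protein at membranes, read 13.49 and 13.31 against 11.66, 11.31 and 11.75 (1.83, SE 0.24). YAP1, the transcription factor that answers peroxide, read 9.28 and 8.88 against 7.25, 7.78 and 7.15 (1.69, SE 0.38, adjusted p = 0.000868). All 3 were separated between the stages. In 8 of the 13 higher panel genes the 6 arrays of propagation 8 h and 30 h lay below all 11 others, a pattern that 64.2% of all higher genes shared. In 9 of the 13 propagation 0 h was above propagation 30 h on every array. In 10 of the 13 both fermentation 30 h arrays fell within the range of fermentation 8 h and 60 h. For these latter patterns the shares among all higher genes were not counted, so the counts are descriptions only.

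**Figure D3:**
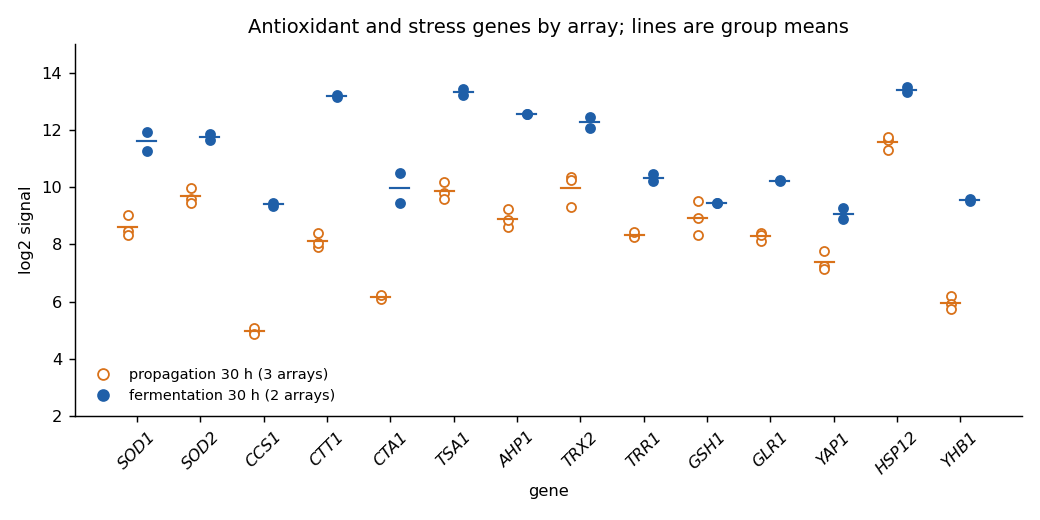
Log2 signal (vertical axis) of the 14 panel genes on each propagation 30 h array (open circles, 3 arrays) and fermentation 30 h array (filled circles, 2 arrays), with group means as lines. In 13 genes the fermentation arrays lie above all propagation arrays, as in 46.3% of all genes, and GSH1 overlaps.

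The whole set of superoxide and peroxide removal had 13 of 15 genes higher, 1 lower and 1 not called, with a median 2.76 above that of all genes. Its exceptions are named here after their values were seen: GPX2, a glutathione peroxidase, fell by 1.14 (SE 0.33), and TSA2, the stress-induced paralog of TSA1, was 0.26 (SE 0.49). The thioredoxin, glutaredoxin and glutathione set had 14 of 23 higher and 1 lower, with a median 1.46 above all genes. The glutaredoxin GRX1 read 10.74 and 10.44 against 6.54, 6.38 and 6.25 (4.20, SE 0.36). MXR2, a mitochondrial methionine sulfoxide reductase, rose by 3.96 (SE 0.31), GRX2, the main glutaredoxin, by 3.44 (SE 0.40) and GTT1, a glutathione transferase, by 3.11 (SE 0.37).

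Of 11 stress regulators, 4 were higher (36.4%), 3 lower (27.3%) and 4 not called, shares near those of all genes, and without fermentation 30 h B only 2 were higher. CAD1, a paralog of YAP1, read 7.55 and 7.76 against 9.19, 9.37 and 9.08 (-1.56, SE 0.24), and SKN7, a partner of Yap1 in peroxide signalling, fell by 1.26 (SE 0.30). MSN4, an activator of the general stress response, rose by 1.40 (SE 0.41, adjusted p = 0.00669), a call that was lost without fermentation 30 h B (adjusted p = 0.0583). Its paralog MSN2, named after its values were seen, was 0.92 (SE 0.44, adjusted p = 0.0763) and passed in 5 of the alternative fits.

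Targets of the general stress response were higher as a set, with 21 of 24 higher, none lower and a median 2.75 above all genes. HSP26, a small heat shock protein that holds unfolded proteins, read 12.34 and 11.23 in fermentation 30 h against 7.73, 6.92 and 6.11 (4.87, SE 0.91). TFS1, a carboxypeptidase inhibitor, rose by 4.25 (SE 0.32), PNC1, the nicotinamidase, by 3.94 (SE 0.25) and HSP42, another small heat shock protein, by 3.91 (SE 0.25). Under quantile normalization 20 of the 24 were higher and 2 lower.

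Storage carbohydrate genes and chaperones followed. Of 18 trehalose and glycogen genes 16 were higher and 1 lower, with a median 2.53 above all genes. GSY1, a glycogen synthase, read 10.92 and 11.31 against 6.94, 6.9 and 6.63 (4.29, SE 0.26), UGP1, which makes UDP-glucose for both stores, rose by 4.08 (SE 0.36) and TPS2, the trehalose phosphatase, by 3.66 (SE 0.33). The exception, named after its values were seen, was the glycogenin GLG2 at -1.67 (SE 0.45). All 17 chaperone genes of the heat shock factor were higher, with a median 1.93 above all genes. SSA1, a cytosolic Hsp70, read 11.07 and 11.86 against 7.01, 7.54 and 6.83 (4.34, SE 0.36), the mitochondrial chaperonin HSP60 rose by 3.30 (SE 0.48) and SSA3, an Hsp70 of stationary cells, by 3.06 (SE 0.37). SSA4, a heat-induced Hsp70, was under the background in propagation 30 h and at least 8.28-fold higher in fermentation.

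**Figure D4:**
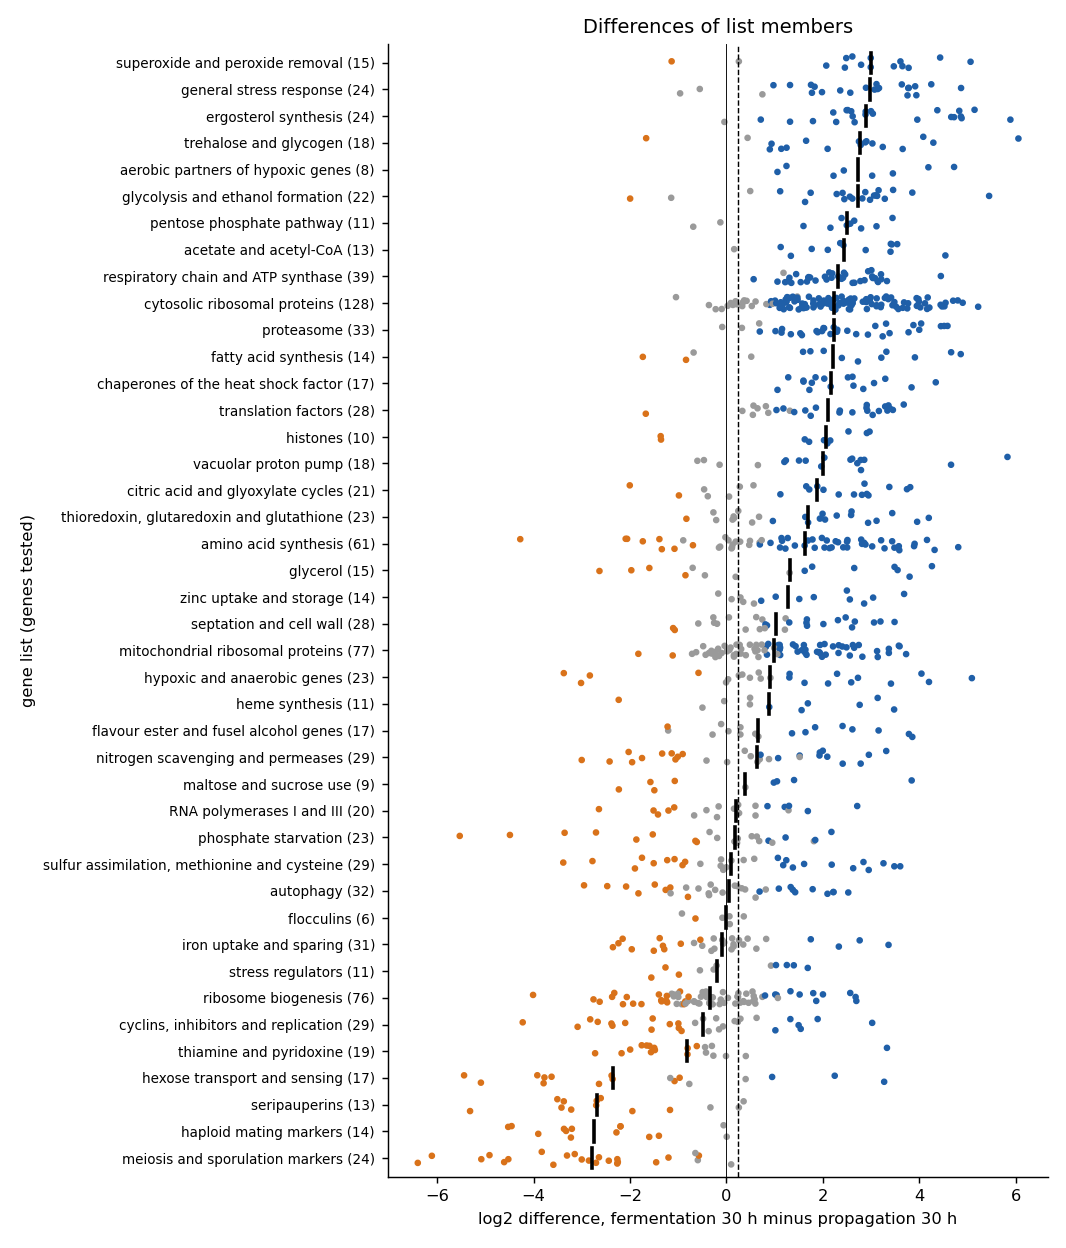
Log2 difference between fermentation 30 h and propagation 30 h (horizontal axis) for the members of 42 gene lists, ordered by median (black bars), with blue for called higher, orange for called lower and grey for not called. The dashed line is the median of all genes at 0.24; the meiosis, mating, seripauperin and hexose transport lists lie to its left.

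Enzymes that carry sugar to ethanol were higher. In glycolysis and ethanol formation 19 of 22 genes were higher and 1 was lower, with a median 2.48 above all genes. PGI1, phosphoglucose isomerase, read 12.42 and 12.47 in fermentation 30 h against 7.39, 6.91 and 6.69 in propagation 30 h, a 43.7-fold difference (5.45, SE 0.37, adjusted p = 4.99e-09). PDC1, the main pyruvate decarboxylase, read 13.2 and 13.24 against 9.88, 9.09 and 9.12 (3.86, SE 0.29). The enolase genes ENO1 and ENO2 rose by 3.46 (SE 0.66) and 3.28 (SE 0.58), although such close paralogs can share signal on an array. The lower gene, named after its values were seen, was PYK2, the pyruvate kinase used when glycolytic flux is low, which read 9.5 and 9.85 against 11.9, 11.73 and 11.39 (-2.0, SE 0.29).

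Of 11 pentose phosphate genes 9 were higher and none lower, with a median 2.26 above all genes, led by the lactonases SOL3 (3.45, SE 0.67) and SOL4 (3.11, SE 0.31), the transaldolase TAL1 (2.79, SE 0.47) and the transketolase TKL1 (2.65, SE 0.56). Of 13 genes of acetate and acetyl-CoA 12 were higher, with a median 2.19 above all genes. ACS2, the acetyl-CoA synthetase used on glucose, read 11.86 and 11.64 against 7.32, 6.94 and 7.36 (4.54, SE 0.53). The aldehyde dehydrogenase ALD6 rose by 3.54 (SE 0.43), the CoA transferase ACH1 by 3.43 (SE 0.63) and LAT1, of the pyruvate dehydrogenase complex, by 3.41 (SE 0.44). Of 15 glycerol genes 7 were higher (46.7%) and 4 lower (26.7%), with a median 1.08 above all genes and a lowest difference of -2.63. The 4 largest differences in the list were rises. DAK1, which phosphorylates dihydroxyacetone, read 10.45 and 10.38 against 6.19, 5.83 and 6.43 (4.26, SE 0.31), the glycerol kinase GUT1 rose by 3.80 (SE 0.56), the mitochondrial dehydrogenase GUT2 by 3.55 (SE 0.42) and GPD1, which makes glycerol phosphate, by 3.49 (SE 0.43).

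Most hexose transport and sensing genes were lower, unlike those of glycolysis. Of 17 genes 11 were lower and 3 higher, with a median of -2.60 relative to all genes and a highest difference of 3.27. Array medians of this list were 6.65 to 6.86 in fermentation 30 h and 9.09 to 9.57 in propagation 30 h. They were 8.88 to 9.35 in propagation 8 h and 6.61 to 7.74 in propagation 0 h, so the earliest propagation arrays lay nearer to fermentation. HXT8 read 4.82 and 4.72 in fermentation 30 h against 10.14, 9.47 and 9.97 (-5.09, SE 0.29), and HXT11 fell by 3.79 (SE 0.61). HXT10 was at least 12.5-fold lower and HXT14 at least 23.1-fold lower. HXT1, the low-affinity glucose transporter, was named after its values were seen: it read 6.52 and 6.65 against 9.08, 8.91 and 8.91 (-2.38, SE 0.37) and 9.7 to 11.24 in propagation 0 h. The members that moved most, HXT8, HXT10, HXT11 and HXT14, belong to the less studied part of the family.

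Maltose and sucrose genes had 4 of 9 higher, 4 lower and 1 not called, with a median 0.16 above all genes. IMA1, an isomaltase, read 11.72 and 12 against 7.91, 8.24 and 7.91 (3.84, SE 0.25). MAL11, a maltose transporter, read 8.47 and 8.6 against 10.87, 10.37 and 11.06 (-2.23, SE 0.29), the activator gene MAL13 fell by 1.58 (SE 0.34) and the transporter gene MPH2, whose probe set is shared with similar sequences, by 1.50 (SE 0.30). MAL31, another maltose transporter, was named after its values were seen and read 12.05 and 12.44 against 11.38, 10.99 and 11.21 (1.05, SE 0.33, adjusted p = 0.0109). It did not pass without fermentation 30 h C (0.85, adjusted p = 0.106), and quantile normalization turned it to -0.06 (adjusted p = 0.862) and the median of these genes, before subtracting that of all genes, from 0.39 to -0.73.

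Genes of respiration were higher in the fermenting yeast than in the aerated yeast. Of 39 genes of the respiratory chain and ATP synthase 38 were higher and none lower, with a median 2.08 above all genes. All 39 had both fermentation 30 h arrays above all propagation 30 h arrays, as did 46.3% of all genes. COR1, a core subunit of complex III, read 11.08 and 10.97 in fermentation 30 h against 7.04, 6.44 and 6.25 in propagation 30 h, a 21.8-fold difference (4.45, SE 0.48, adjusted p = 4.88e-07). The ATP synthase genes ATP16, ATP2 and ATP14 rose by 3.33 (SE 0.50), 3.21 (SE 0.58) and 3.21 (SE 0.41). Array medians of this set were 9.92 to 10.62 in propagation 0 h, 7.97 to 8.18 in propagation 8 h, 8.39 to 8.7 in propagation 30 h and 10.97 to 11.04 in fermentation 30 h. Of 21 citric acid and glyoxylate cycle genes 14 were higher and 2 lower, with a median 1.65 above all genes. MDH3, the peroxisomal malate dehydrogenase, rose by 3.81 (SE 0.32), IDH2, of the mitochondrial isocitrate dehydrogenase, by 3.75 (SE 0.28), LSC1, of succinyl-CoA ligase, by 3.38 (SE 0.34) and CIT1, the citrate synthase, by 2.95 (SE 0.35).

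Genes that yeast uses with and without oxygen were set side by side. Of 23 hypoxic and anaerobic genes 11 were higher, 4 lower and 8 not called, with a median 0.68 above all genes. TIR4, a cell wall mannoprotein of anaerobic cells, read 11.27 and 10.99 against 6.16, 6.17 and 5.79 (5.09, SE 0.49), and its relative TIR1 rose by 4.05 (SE 0.39). CYC7, the hypoxic cytochrome c, rose by 3.41 (SE 0.34), and ANB1, a translation factor of anaerobic cells whose near-identical paralog HYP2 can share its signal, by 4.20 (SE 0.31). Their aerobic counterparts were higher too: all 8 aerobic partners passed, with a median 2.49 above all genes. HMG1, the sterol pathway reductase of aerobic cells, read 12.17 and 12.18 against 8.05, 7.25 and 7.05 (4.72, SE 0.52), HYP2 rose by 3.45 (SE 0.36) and COX5A, the aerobic subunit of cytochrome oxidase, by 3.02 (SE 0.56). CWP1, a wall protein of aerobic cells, was at least 14.8-fold higher.

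Other hypoxic genes, named after their values were seen, ranged from higher to lower. COX5B, the hypoxic counterpart of COX5A, read 11.02 and 10.81 against 8.99, 9.21 and 9.7 (1.62, SE 0.30). DAN1, an anaerobic wall protein, read 6.01 and 6.09 against 5.96, 6.35 and 5.87, with overlapping arrays (-0.01, SE 0.34). HEM13, the oxygen-using coproporphyrinogen oxidase that rises when heme is short, was 0.49 (SE 0.38, adjusted p = 0.273). AAC3, the anaerobic ADP/ATP carrier, read 6.57 and 7.47 against 10.26, 9.92 and 9.94 (-3.02, SE 0.30), and PDR11, a sterol importer of anaerobic cells, read 7.59 and 7.35 against 10.13, 10.17 and 10.62 (-2.83, SE 0.25).

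Genes that make sterols and fatty acids were higher. Of 24 ergosterol genes 23 were higher and none lower, with a median 2.65 above all genes. ERG26, a sterol C-3 dehydrogenase, read 11.72 and 11.45 against 6.72, 6.18 and 6.42 (5.15, SE 0.68), ERG27, the keto reductase of the same complex, rose by 4.88 (SE 0.30) and the mevalonate pathway kinase ERG8 by 4.86 (SE 0.26). Array medians of the ergosterol genes were 11.21 to 11.5 in fermentation 30 h, 8.08 to 8.49 in propagation 30 h and 9.16 to 10.97 in propagation 0 h. Of 14 fatty acid genes 10 were higher and 2 lower, with a median 1.97 above all genes. The lower calls depended on fermentation 30 h B. ACB1, the acyl-CoA binding protein, read 12.19 and 12.13 against 7, 7.54 and 7.37 (4.86, SE 0.28), ACC1, acetyl-CoA carboxylase, rose by 4.66 (SE 0.34), and the fatty acid synthase genes FAS2 and FAS1 rose by 3.91 (SE 0.37) and 3.32 (SE 0.27). OLE1, the oxygen-dependent desaturase that makes unsaturated fatty acids, was named after its values were seen and read 12.96 and 12.76 against 10.31, 10.07 and 10.02 (2.73, SE 0.58).

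Of 128 genes listed as cytosolic ribosomal proteins 109 were higher and none lower, with a median 2.00 above all genes. The list includes RPP1, which encodes a subunit of RNase P and not a ribosomal protein. Under quantile normalization 84 of the 128 were higher and 8 lower. RPL13B read 11.17 and 11.83 in fermentation 30 h against 6.65, 6.03 and 6.16 in propagation 30 h (5.22, SE 0.57), RPS23B rose by 4.90 (SE 0.47), and the stalk proteins RPP0 and RPP1A by 4.80 (SE 0.44) and 4.70 (SE 0.27). Most ribosomal proteins have a near-identical paralog, so these values are uncertain for a single copy. Of 28 translation factors 20 were higher and 1 lower, with a median 1.87 above all genes. The higher genes included CAM1 (3.68, SE 0.33), the termination factor SUP35 (3.36, SE 0.47) and EFT2, an elongation factor 2 gene with a shared probe set (3.39, SE 0.35). Mitochondrial ribosomal proteins had 40 of 77 higher and 2 lower, with a median 0.76 above all genes. MRPS12 rose by 3.73 (SE 0.47), MNP1 by 3.59 (SE 0.63) and MHR1 by 3.37 (SE 0.28), and MRPL20 was at least 6.76-fold higher.

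Ribosome biogenesis did not move with the ribosomal proteins. Of 76 biogenesis genes 11 were higher, 19 lower and 46 not called, shares of 14.5% and 25% that are both below the 37.5% and 27.9% of all genes, with a median of -0.59 relative to all genes. DBP8, an RNA helicase of the small subunit, read 7.01 and 6.86 against 10.85, 11.11 and 10.89 (-4.01, SE 0.35), and SDA1, needed for export of the large subunit, fell by 2.76 (SE 0.28). In the other direction EMG1, an rRNA methyltransferase, rose by 2.69 (SE 0.66) and the helicase DBP9 by 2.68 (SE 0.45). These counts moved with the processing: 6 were higher without fermentation 30 h C, and 31 were lower both under quantile normalization and without the 3 arrays of lowest 5-prime signal. Array medians were 7.53 to 7.76 in fermentation 30 h, 7.8 to 8.16 in propagation 30 h and 8.45 to 10.16 in propagation 0 h. Of 20 genes of RNA polymerases I and III 5 were higher and 5 lower (25% each), against 37.5% and 27.9% of all genes. RET1 at 2.71 (SE 0.40) and RPA43 at -2.65 (SE 0.44) were at the ends. RPA14 rose by 1.69 (SE 0.65, adjusted p = 0.0308), and without fermentation 30 h B 3 of the 20 were higher.

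Transcripts of the proteasome, which degrades tagged proteins, were higher. Of 33 proteasome genes 30 were higher and none lower, with a median 1.99 above all genes. PUP1, a catalytic core subunit, read 10.46 and 10.27 against 5.74, 5.66 and 6.14 (4.52, SE 0.39), PUP3 rose by 4.45 (SE 0.55) and RPN9, of the regulatory lid, by 4.04 (SE 0.28). PRE9, an outer ring subunit, was at least 19.9-fold higher. RPN4, the activator of proteasome genes, was named after its values were seen and read 10.35 and 10.2 against 8.47, 8.68 and 8 (1.89, SE 0.27). The vacuolar proton pump had 14 of 18 genes higher and none lower, with a median 1.76 above all genes. Among the higher genes were VMA1 (4.66, SE 0.38), VPH1 (2.86, SE 0.35) and VMA6 (2.79, SE 0.29). Autophagy genes had 10 of 32 higher (31.2%) and 8 lower (25%), near the shares of all genes, with a median of -0.19 relative to all genes. ATG8, whose product coats the forming autophagosome, rose by 2.22 (SE 0.33) and the mitophagy gene ATG33 by 2.53 (SE 0.29), while ATG10, a conjugating enzyme, read 7.78 and 7.64 against 10.96, 10.44 and 10.61 (-2.95, SE 0.33) and the vacuolar effluxer ATG22 fell by 2.47 (SE 0.27).

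Amino acid synthesis was higher for most genes, with 39 of 61 higher and 8 lower and a median 1.39 above all genes. SHM2, the cytosolic serine hydroxymethyltransferase, read 12.48 and 12.28 against 7.64, 7.66 and 7.41 (4.81, SE 0.37), SER1 of serine synthesis rose by 4.32 (SE 0.37) and LYS12 of lysine synthesis by 4.16 (SE 0.30). HIS6 of histidine synthesis went the other way, at 6.55 and 7.05 against 11.14, 11.15 and 10.93 (-4.28, SE 0.27). Sulfur genes had 12 of 29 higher (41.4%) and 9 lower (31%), near the shares of all genes, with a median of -0.13 relative to all genes, and without fermentation 30 h B 5 were lower. MET6, the methionine synthase, rose by 3.61 (SE 0.62), SAM1, which makes S-adenosylmethionine, by 3.48 (SE 0.64) and CYS3 of cysteine synthesis by 3.26 (SE 0.45), while the sulfate permease SUL1 read 4.57 and 5.32 against 7.94, 8.59 and 8.46 (-3.39, SE 0.40). Nitrogen genes had 11 of 29 higher (37.9%) and 10 lower (34.5%), also near the shares of all genes, with a median 0.41 above all genes. The proline oxidase PUT1 rose by 3.31 (SE 0.45), the GABA transaminase UGA1 by 2.95 (SE 0.36) and the glutamine permease GNP1 by 2.78 (SE 0.55), and the allantoin permease DAL4 fell by 3.00 (SE 0.25).

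Genes of metal supply were taken by metal, and differences between these lists were not tested. Of 14 zinc genes 9 were higher and none lower, with a median 1.03 above all genes. The median before this subtraction was 1.27, and 0.66 under quantile normalization. ZRT1, the high-affinity zinc transporter, read 13.15 and 12.95 in fermentation 30 h against 11.14, 9.65 and 9.8 in propagation 30 h (2.86, SE 0.37). ZAP1, the activator of zinc uptake genes, read 8.93 and 8.31 against 4.87, 5.6 and 6.25 (3.04, SE 0.59), ZRC1, which moves zinc into the vacuole, rose by 3.69 (SE 0.52) and ADH4, an alcohol dehydrogenase induced when zinc is low, by 2.56 (SE 0.40). The wort of the fermentation was labelled with less zinc than that of the propagation, and the part of this in the zinc genes cannot be told apart from stage. Of 31 iron genes 4 were higher (12.9%) and 10 lower (32.3%), the latter near the 27.9% of all genes. The scaffold gene ISU1 rose by 3.36 (SE 0.51), the heme oxygenase HMX1 by 2.76 (SE 0.31) and the copper pump CCC2 by 2.33 (SE 0.37), whereas the biotin transporter VHT1, a gene that responds to iron, fell by 2.36 (SE 0.27).

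Phosphate, heme and thiamine genes gave smaller sets. Of 23 phosphate starvation genes 4 were higher (17.4%) and 8 lower (34.8%), the latter near the 27.9% of all genes. Their median was -0.06 relative to all genes, so the list did not fall as a set. The lower genes included the transporters PHO89, at 6.19 and 6.04 against 10.57, 10.5 and 10.75 (-4.49, SE 0.29), and PHO84 (-2.71, SE 0.44). GIT1 belongs to the same set, and PHM6 was at least 7.51-fold lower. In 3 of the alternative fits 7 of the 23 were higher. Of 11 heme genes 6 were higher (54.5%) and 1 lower (9.09%), against 37.5% and 27.9% of all genes. Their median was 0.65 above all genes. The regulator HAP1 rose by 3.48 (SE 0.35), HEM14 was at least 4.8-fold higher and HEM3 at least 4.38-fold lower. Thiamine and pyridoxine genes were mostly lower, with 12 of 19 lower and 1 higher, with a median of -1.04 relative to all genes. The transporter THI72 fell by 2.72 (SE 0.34), SNZ3, with a shared probe set, by 2.18 (SE 0.25) and PDC2, a regulator of thiamine and pyruvate decarboxylase genes, by 2.0 (SE 0.29). The higher gene was SNZ1 of pyridoxine synthesis, at 10.21 and 9.41 against 6.4, 6.94 and 6.11 (3.33, SE 0.44).

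Of 10 histone genes 8 were higher and 2 lower, with a median 1.82 above all genes. The median before this subtraction was 2.06, and 1.28 under quantile normalization, and the close copies among them can share signal. The variant histone HTZ1 read 8.41 and 8.67 against 5.41, 5.47 and 5.83 (2.97, SE 0.27), HHT2 rose by 2.91 (SE 0.25), HHF1, with a shared probe set, by 2.53 (SE 0.29) and HTB1 by 2.15 (SE 0.30). Of 29 cyclins, inhibitors and replication genes 13 were lower (44.8%) and 6 higher (20.7%), against 27.9% and 37.5% of all genes. Their median was -0.72 relative to all genes. CLN2, a cyclin of the G1 phase, read 7.4 and 7.9 against 11.29, 11.81 and 12.53 (-4.23, SE 0.41), PCL9 fell by 3.09 (SE 0.39), the transcription factor SWI5 fell by 2.83 (SE 0.32), and RNR4, of ribonucleotide reductase, rose by 3.02 (SE 0.63). CLN2 was 10.19 to 11.74 in propagation 8 h and 6.56 to 7.49 in propagation 0 h. ACT1, the actin gene often used as a reference, was named after its values were seen and read 12.47 and 12.52 against 9.77, 9.91 and 10.27 (2.51, SE 0.30). It stayed positive under recentring (2.33) and quantile normalization (1.66).

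Wall and aroma genes closed the set of lists. Of 28 septation and cell wall genes 14 were higher (50%) and 2 lower (7.14%), against 37.5% and 27.9% of all genes. Their median was 0.79 above all genes, and fewer were higher without fermentation 30 h C. PIR3 rose by 3.49 (SE 0.68), HSP150 by 3.20 (SE 0.45), SCW4 by 3.06 (SE 0.69) and the chitinase CTS1, which separates daughter cells, by 2.66 (SE 0.34). Flocculins hold brewing yeast in clumps, and their list held the flocculin genes FLO1, FLO9, FLO10 and FLO11 and the regulators FLO8 and MSS11. None of the 6 was higher, and no flocculin gene was called. The 1 lower gene was the regulator FLO8 at -0.64 (SE 0.26, adjusted p = 0.0373). FLO8 was lost without fermentation 30 h C (adjusted p = 0.251) or without propagation 30 h C (adjusted p = 0.129). Of 17 flavour ester and fusel alcohol genes 8 were higher (47.1%) and 1 lower (5.88%), with a median 0.43 above all genes. EEB1, an ethyl ester synthase, read 9.99 and 9.84 against 6.53, 6.16 and 5.71 (3.79, SE 0.29), and PDC1, described above, SFA1 (3.16, SE 0.38) and PDC5 (2.61, SE 0.44) were next. ATF1, the main acetate ester synthase, was named after its values were seen and had overlapping arrays at 8.91 and 8.78 against 8.66, 8.98 and 9.23 (-0.11, SE 0.25).

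The lowest medians relative to all genes belonged to seripauperins, meiosis and mating markers, and hexose transport described above. Seripauperins, small wall proteins of anaerobic cells with many near-identical copies and shared probe sets, had 10 of 13 lower and none higher, with a median of -2.93 relative to all genes. PAU21 read 6.02 and 5.76 against 11.06, 10.9 and 11.67 (-5.32, SE 0.46), and PAU18, PAU3 and PAU24 fell by 3.51 (SE 0.47), 3.42 (SE 0.28) and 3.37 (SE 0.39). Copies this similar cannot be counted as independent genes. Meiosis and sporulation markers had 21 of 24 lower and none higher, with a median of -3.02 relative to all genes. SPS4 read 4.64 and 4.75 against 9.17, 9.63 and 10.54 (-5.09, SE 0.44), and the kinase gene SPS1 was at least 23.7-fold lower. On both fermentation 30 h arrays 11 of the 24 markers lay within the signal of probe sets for another species, against 1 on all propagation 30 h arrays.

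Haploid mating markers, which a diploid or polyploid yeast normally keeps off, had 12 of 14 lower and none higher, with a median of -2.98 relative to all genes. STE3, a pheromone receptor gene, read 5.56 and 5.4 against 9.22, 9.92 and 10.68 (-4.46, SE 0.36), FUS2, of cell fusion, fell by 3.90 (SE 0.47) and the pheromone exporter STE6 by 3.37 (SE 0.35). FIG1 was at least 19.6-fold lower. STE3 read 9.18 to 9.73 in propagation 8 h and 4.73 to 5.69 in propagation 0 h, so the earliest propagation arrays were as low as those of fermentation. The part of these cell states in the lower genes of other groups was not tested.

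To ask whether the stage difference at 30 h was another than at 8 h, the difference of the differences was tested in the same fit. It passed for 15 genes (0.275%), and 11% had an unadjusted p under 0.05. With its sign kept, the stage difference was higher at 30 h for 7 genes (0.128%) and lower for 8 (0.147%). A lower value was not always a smaller difference. YCR099C went from -1.26 at 8 h to -3.6 at 30 h, and ARR2 (1.65 to -0.64), SRL3 (1.62 to -0.58) and SGM1 (1.84 to -0.24) changed sign. No panel gene passed. The count rests on single arrays: it was 6 without fermentation 30 h B, between 6 and 8 when any fermentation 8 h array was left out, 7 when propagation 30 h B or propagation 8 h B was left out and 9 when propagation 30 h C was. It also moved with the processing, from 1 when tested against a 2-fold change to 68 on the 11 arrays of the 4 groups alone, 81 without the 3 arrays of lowest 5-prime signal and 319 with array weights.

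Genes whose stage difference was larger at 30 h were mainly those of ribosomal proteins. RPL30 read 12.18, 11.83 and 11.86 in propagation 8 h A, B and C and 9.04, 8.79 and 8.99 in propagation 30 h, while fermentation read 13.22, 13.2 and 13.12 at 8 h and 12.8 and 13.12 at 30 h. The stage difference grew by 2.80 (SE 0.29, adjusted p = 0.000196), and RPL30 passed in every alternative fit. RPS31, which encodes a fusion of ubiquitin and a ribosomal protein, grew by 2.91 (SE 0.37), RPP1A by 2.59 (SE 0.36), RPS2 by 2.27 (SE 0.31) and PDC1 by 2.26 (SE 0.39). PDC1 read 11.19, 11.53 and 11.87 in propagation 8 h and stayed between 13.09 and 13.24 in fermentation at both times. Of the 7 larger genes, 5 encode cytosolic ribosomal proteins.

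ECM4, a glutathione transferase, was among the genes whose signed stage difference was lower at 30 h. It read 6.18, 5.87 and 4.76 in propagation 8 h and 9.58, 10.01 and 9.22 in propagation 30 h. In fermentation it read 10.33, 9.72 and 9.7 at 8 h and 10.8 and 9.77 at 30 h. Its stage difference moved from 4.30 at 8 h to 0.68 at 30 h, a change of -3.63 (SE 0.54, adjusted p = 0.00424). IDP2, the cytosolic isocitrate dehydrogenase that supplies NADPH, read 4.65, 4.87 and 4.99 in propagation 8 h and 7.53, 7.71 and 6.48 in propagation 30 h (-2.72, SE 0.51). ARR2, an arsenate reductase, changed by -2.30 (SE 0.40). DAL7, a malate synthase of allantoin breakdown, changed by -2.43 (SE 0.43) and read 9.29, 9.13 and 8.82 in fermentation 8 h and 6.81 and 8.13 in fermentation 30 h. SRL3 changed by -2.20 (SE 0.44).

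**Figure D5:**
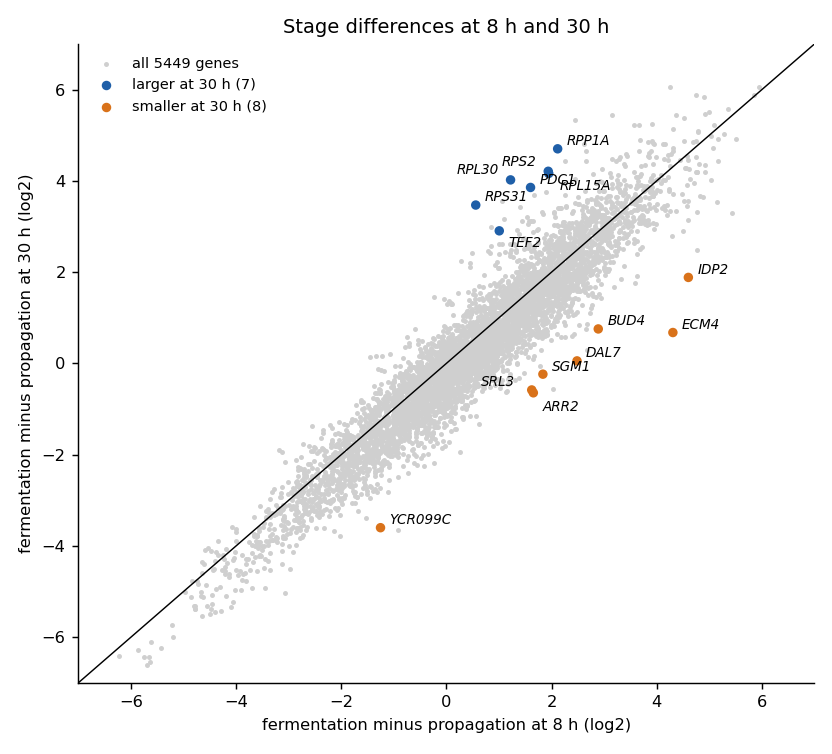
Stage difference, fermentation minus propagation, at 30 h (vertical axis) against 8 h (horizontal axis), both on the log2 scale, for 5449 genes with the line of equality. The 15 coloured genes passed the test of the difference between the times. With its sign kept, the stage difference was higher at 30 h in 7 (blue) and lower in 8 (orange).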

How the data were processed

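RNA was measured on Affymetrix yeast arrays, and the deposited value of each of 10928 probe sets is a log2 expression summary made with RMA, per the submitters' processing notes. Which arrays were normalized together is not given in the sources used here, and raw intensities were not used here. Of the probe sets 5498 carry an S. cerevisiae gene, and for 47 genes with several the one of highest mean was kept, which left 5449 genes with no filter on low signal. Of these, 115 are read by a probe set shared with similar sequences. The fit was a group-means model over the 17 arrays, made by lmFit and eBayes of limma 3.58.1 in R 4.3.3 with 11 residual degrees of freedom. P-values were two-sided and adjusted by Benjamini-Hochberg over 5449 genes, and the script was tested on simulated data. SE is the moderated standard error. A gene under the 95th percentile of other-species probe sets on every array of a group has only a bound, computed against that percentile.

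The genes and the 42 lists were chosen with earlier results of these data known, so their counts are descriptions. Of 1122 list members 45 were not matched to a tested gene. Named genes are the 8 largest rises and falls, 14 panel genes, up to 4 called members of each list with the largest differences, and the 5 largest and smallest of the second contrast; others are said to have been named after their values were seen. The replicate letters were checked as pairs: residuals of the same letter correlated at -0.0123 and 0.0682 between the groups compared, and 14 of 40 same-letter pairs over all groups exceeded 0.1 (-0.152 to 0.777). Not every pair did, so the letter was used as a block only in an alternative. Precision is limited by the few arrays per group, and the median SE was 0.33. The alternatives, of which 3 were chosen after the data were seen, are given in the closing section. The titles of fermentation 8 h and 30 h carry a mark that the labels do not explain, and it was not used.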

Additional observations from a re-analysis of the deposited data

Results flagged for a closer look

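The test of the difference between the stage differences at 30 h and at 8 h picked out 10 named genes, and the cause was not tested. The stage difference was larger at 30 h for RPS31 (2.91), RPL30 (2.80), RPP1A (2.59), RPS2 (2.27) and PDC1 (2.26). With its sign kept, it was lower at 30 h for ECM4 (-3.63), IDP2 (-2.72), DAL7 (-2.43), ARR2 (-2.30) and SRL3 (-2.20). Of the 15 genes that passed, 6 still passed without fermentation 30 h B and 6 without fermentation 8 h A.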

How the results depend on the processing

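The number of genes that differed between the stages at 30 h was 3565, from 2982 to 3409 when each array was left out in turn, and 1870 (1107 higher and 763 lower) when tested against a 2-fold change. Without the dimmest 25% of genes 956 were lower, with fewer genes tested. With the replicate block 3623 genes passed at 30 h. The number whose stage difference changed between 8 h and 30 h was 15, from 6 to 19 when each array was left out, 24 with the replicate block, 26 after recentring, 37 under quantile normalization, 63 with the gap between 3-prime and 5-prime control signal as covariate, 68 on the arrays of the groups alone, 81 without the 3 arrays of lowest 5-prime signal, 319 with array weights and 1 against a 2-fold change. Of 3434 values of named genes under the alternatives, 3398 kept their direction and their side of the threshold, 21 lost the call, 14 gained it and 1 turned, MAL31 at -0.06 under quantile normalization. Medians of 6 lists near 0 turned: maltose and sucrose use (-0.73 under quantile normalization, -0.34 without the dimmest genes), autophagy (-0.02 under quantile normalization, -0.14 recentred), iron (0.02 under quantile normalization, -0.22 to 0.03 without each array), RNA polymerases I and III (-0.03 to 0.30 without each array), phosphate (-0.01 recentred) and stress regulators (0.33 without the dimmest genes). The cause was not tested. Signal over background limits 70 higher genes that lay under it on all propagation 30 h arrays and 179 lower genes that lay under it on both fermentation 30 h arrays.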
